A study of Mus musculus with 6 samples.

Results

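The small leucine-rich proteoglycans (SLRPs) Bgn, Dcn, Aspn, Fmod, Lum, Prelp, Omd and Ogn were followed in tumor-initiating cells (TICs) and other tumor cells of murine mammary carcinomas. The members were chosen by name, as the 8 rows of the count files whose Ensembl identifiers carry these gene symbols, out of 41388 genes counted. All 8 members had counts in all 6 samples and passed the filter on low counts, so that none was lost before testing. At an adjusted p below 0.1 by edgeR, 1.36% of all genes tested were higher in TICs. Of the 8 members, 5 were called higher by this rule, namely Bgn, Dcn, Fmod, Prelp and Ogn, and none was called lower. The largest of these differences by fold was that of Fmod, at 7.40-fold, and the most abundant member in both groups was Bgn.

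SLRPs are secreted matrix proteins whose core is built from leucine-rich repeats. Most of them bind fibrillar collagens, where they set the width and spacing of the fibrils, and several hold growth factors such as TGF-beta in the matrix. In the mammary gland and its tumors they are known chiefly as products of stromal fibroblasts, and decorin and biglycan have also been studied as signals, decorin at receptor tyrosine kinases and soluble biglycan at Toll-like receptors. By sequence and gene structure the family is divided into classes. Class I holds biglycan and decorin, whose cores carry chondroitin or dermatan sulfate chains, and asporin, which has a stretch of aspartates in their place. Class II holds the keratan sulfate type, here fibromodulin, lumican, prolargin (PRELP) and osteomodulin, and class III holds osteoglycin, also called mimecan.

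Both groups came from primary mammary tumors of 12-week-old FVB/N-TgN(MMTVPyVT)634Mul/J mice, in which the mouse mammary tumor virus promoter drives the polyoma middle T antigen. TICs were the CD24+CD90+CD45- cells obtained by FACS, and the comparison group, named non-CD24+CD90+ tumor cells after the study's methods, held the CD45- cells outside that gate. The description of the series calls the second group CD24-CD90- cells, whereas by the methods of the study cells that lacked either marker or both were collected. There were 3 samples in each group, each a pool of 4 cell sorts. The sort removed CD45+ cells and, for TICs, cells without CD24 or without CD90.

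Total counts were 6781239 to 8450038 in non-CD24+CD90+ tumor cells and 8114933 to 9100552 in TICs. At these depths 3 counts equal 0.33 to 0.442 CPM, which are counts scaled to a common library size, while the lowest count of any member in any sample was 23. Genes for which the rest of their group predicted 20 to 60 counts were at 0 in 19.1% to 39.7% of cases, so a single low value has a wide error beyond counting error. TIC replicate 3 stood apart from the rest, at 165 on the first principal component against -56.9 to -5.5 for the other 5 samples, and results were also computed without it. Of the sorting markers, Thy1, the gene of CD90, was at 75.9, 56.7 and 21.6 CPM in the non-CD24+CD90+ samples and at 90.7, 207 and 70.3 CPM in TICs, which overlapped (log2 fold change 1.25 ± 0.50 (SE), adjusted p = 0.350 by edgeR). Cd24a overlapped as well, at 402 to 602 CPM against 315 to 440 CPM. Ptprc, the gene of CD45, had counts in 1 of the 6 samples only, 33 counts in non-CD24+CD90+ replicate 1.

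Expression is given below as CPM normalized by the trimmed mean of M-values (TMM). Groups were compared with edgeR's exactTest over the 12192 genes that exceeded 1 CPM in 3 or more samples, and adjusted p-values are those of Benjamini and Hochberg over all these genes, with a threshold of 0.1. Replicates are numbered 1 to 3 in each group and values are listed in that order. These numbers follow the order of the samples, and the labels do not say which samples of the 2 groups, if any, came from the same mice. The supplement of the study can be read as both groups being sorted from the same mice. The groups were compared as independent, with no pairing fitted. Of the genes tested, 166 were higher in TICs by this rule, which is 1.36%, beside 5 of 8 SLRP members. The TIC samples lay above all non-CD24+CD90+ samples for 6 of the 8 members and for 7.69% of all genes tested. The fitted log2 fold change was above 0 for all 8 members, with a median of 1.46, where the median over all genes tested was -0.01 and 49.7% were above 0. Without TIC replicate 3 the members passing the threshold were 4, Bgn, Dcn, Prelp and Ogn. RNA came from sorted cell pools, in which more cells of an SLRP-producing type and more SLRP RNA per cell cannot be told apart.

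Summed over the 8 members, SLRP counts made up 0.161%, 0.146% and 0.165% of all counts in the non-CD24+CD90+ samples. In the TIC samples they made up 0.365%, 0.413% and 0.467%, above every non-CD24+CD90+ sample. The summed level was 1545 ± 131 CPM (SD, n = 3) in non-CD24+CD90+ tumor cells and 4271 ± 681 CPM (SD, n = 3) in TICs, 2.76-fold higher. Class I went from 1416 ± 134 to 3858 ± 686 CPM, a 2.72-fold difference, class II from 74.7 ± 35.1 to 253 ± 55.3 CPM, a 3.39-fold difference, and class III, which is osteoglycin alone here, by 2.92-fold (SD, n = 3 in each group).

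**Figure D1:**
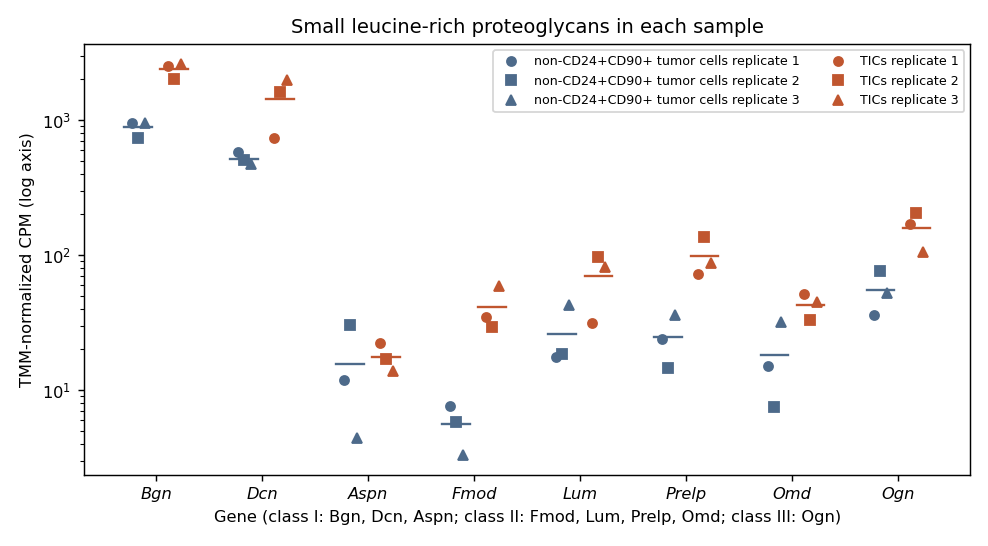
TMM-normalized CPM of the 8 SLRP members on a log axis, with 1 point per sample, replicates by symbol shape, and a horizontal line at the mean of each group of 3 samples. The TIC samples lie above all non-CD24+CD90+ samples for Bgn, Dcn, Fmod, Prelp, Omd and Ogn, while the groups overlap for Lum and Aspn.

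Biglycan (Bgn, ENSMUSG00000031375, GRCm38 chrX:73483602-73495933, plus strand) is the class I member that carries glycosaminoglycan chains near its amino terminus and, when released from the matrix, acts on Toll-like receptors. Its level was 953, 743 and 954 CPM in the non-CD24+CD90+ samples and 2535, 2030.4 and 2623 CPM in the TIC samples. The groups were far apart for this gene, since the lowest TIC sample was 2.13 times the highest non-CD24+CD90+ sample. The mean rose from 883 ± 122 to 2396 ± 320 CPM (SD, n = 3), a log2 fold change of 1.44 ± 0.27 (SE; 95% interval 0.90 to 1.98; adjusted p = 0.000259 by edgeR). Among the members Bgn alone also passed with edgeR's quasi-likelihood test (adjusted p = 0.0293), a test by which 0.402% of all genes were higher in TICs. With DESeq2 the same 5 members passed as with exactTest, where 1.9% of all genes were higher in TICs. It passed in all 6 fits that each lacked a sample, with log2 fold changes of 1.33 to 1.55.

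Decorin (Dcn, ENSMUSG00000019929, chr10:97479609-97518143, plus strand) binds collagen I fibrils and TGF-beta. It was at 577, 502 and 472 CPM in the non-CD24+CD90+ samples and at 732, 1617 and 1983 CPM in the TIC samples. All TIC samples were above the other group, but TIC replicate 1 lay much nearer to it than to the remaining TIC samples. The mean rose from 517 ± 53.9 to 1444 ± 643 CPM (SD, n = 3), and the log2 fold change was 1.48 ± 0.35 (SE; 95% interval 0.80 to 2.16; adjusted p = 0.00799 by edgeR). The call was lost without non-CD24+CD90+ replicate 2 (adjusted p = 0.144 by edgeR) and without replicate 3 of that group (adjusted p = 0.134), while the fold change stayed between 1.20 and 1.81 over the 6 fits that each lacked a sample.

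Asporin (Aspn, ENSMUSG00000021388, chr13:49544443-49567565, plus strand), which competes with decorin for collagen, was the member with the smallest fitted difference. Its level was 11.97, 30.2 and 4.43 CPM in the non-CD24+CD90+ samples and 22.3, 16.9 and 13.9 CPM in TICs, from 31 to 266 counts a sample. The TIC samples fell inside the range of the other group. The log2 fold change was 0.19 ± 0.90 (SE; adjusted p = 1.0 by edgeR), and its 95% interval, -1.58 to 1.95, includes the fold changes of its class I relatives. Without non-CD24+CD90+ replicate 3 the fitted value turned to -0.25.

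Fibromodulin (Fmod, ENSMUSG00000041559, chr1:134037254-134048277, plus strand), a class II member that binds collagen I and guides its cross-linking, was the least abundant of the 8 members in non-CD24+CD90+ tumor cells. It was at 7.59, 5.79 and 3.29 CPM there, on 52, 51 and 23 counts, and at 34.5, 29.5 and 59.4 CPM in TICs, on 314, 253 and 450 counts. Every TIC sample was above every non-CD24+CD90+ sample by a wide margin. The mean rose from 5.56 ± 2.16 to 41.1 ± 16.0 CPM (SD, n = 3), with a log2 fold change of 2.88 ± 0.70 (SE; 95% interval 1.51 to 4.26; adjusted p = 0.0218 by edgeR). This interval overlaps those of the other members, and the difference between members was not tested. The call was lost without TIC replicate 3 (adjusted p = 0.234 by edgeR), without non-CD24+CD90+ replicate 2 (0.181) and without non-CD24+CD90+ replicate 3 (0.188).

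Prolargin (Prelp, ENSMUSG00000041577, chr1:133910304-133921414, minus strand) anchors basement membrane components to the collagen beneath. Its level was 23.8, 14.5 and 36.2 CPM in the non-CD24+CD90+ samples and 72.6, 136 and 87.9 CPM in the TIC samples. The groups did not overlap. The mean rose from 24.8 ± 10.9 to 98.8 ± 33.0 CPM (SD, n = 3), and the log2 fold change was 1.99 ± 0.46 (SE; 95% interval 1.09 to 2.90; adjusted p = 0.00803 by edgeR). The call was lost without non-CD24+CD90+ replicate 2 (adjusted p = 0.146 by edgeR) and without TIC replicate 2 (adjusted p = 0.172), the sample in which Prelp was highest.

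The remaining class II genes did not pass the threshold. Lumican (Lum, ENSMUSG00000036446, chr10:97565128-97572703, plus strand), a collagen-binding protein best known from the cornea, was at 17.5, 18.4 and 42.3 CPM in the non-CD24+CD90+ group and at 31.5, 96.5 and 82.1 CPM in TICs. TIC replicate 1 lay below non-CD24+CD90+ replicate 3, so the groups overlapped. The log2 fold change of Lum was 1.43 ± 0.55 (SE; 95% interval 0.35 to 2.50; adjusted p = 0.323 by edgeR), close in size to those of Bgn and Dcn, and without TIC replicate 1 it was 1.79 and passed (adjusted p = 0.0622). Osteomodulin (Omd, ENSMUSG00000048368, chr13:49582462-49592822, plus strand), known from mineralizing tissue, was at 15.0, 7.49 and 32.0 CPM in the non-CD24+CD90+ group and at 51.5, 32.8 and 44.6 CPM in TICs. Its groups did not overlap, but only by a small margin between 32.0 and 32.8 CPM, and the log2 fold change was 1.24 ± 0.64 (SE; 95% interval -0.02 to 2.50; adjusted p = 0.685 by edgeR).

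Osteoglycin (Ogn, ENSMUSG00000021390, chr13:49608046-49624501, plus strand), the class III member, takes part in collagen fibril formation. It was at 35.9, 75.6 and 52.8 CPM in the non-CD24+CD90+ samples and at 169.6, 205 and 105 CPM in the TIC samples. The groups did not overlap, and Ogn ranked next after Bgn and Dcn in level in both. The mean rose from 54.8 ± 19.9 to 159.9 ± 51.0 CPM (SD, n = 3), a log2 fold change of 1.55 ± 0.38 (SE; 95% interval 0.80 to 2.29; adjusted p = 0.0137 by edgeR). The call was lost without non-CD24+CD90+ replicate 1 (adjusted p = 0.203 by edgeR), without non-CD24+CD90+ replicate 3 (0.1499) and without TIC replicate 2 (0.189).

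**Figure D2:**
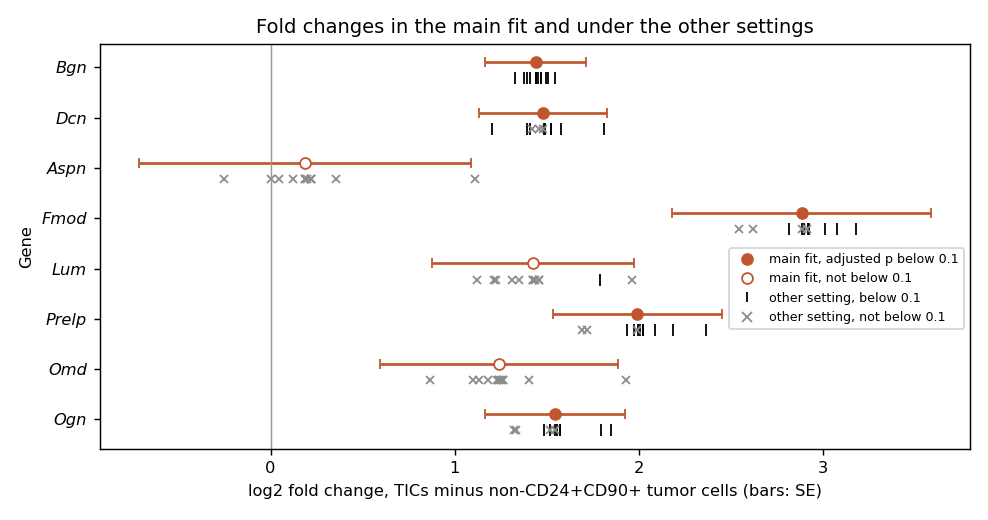
Log2 fold change of each SLRP member, TICs minus non-CD24+CD90+ tumor cells, with its SE (circles, filled where the adjusted p was below 0.1). Ticks and crosses below each circle give the 12 other settings, 6 of method or filter and 6 that left out a sample. Bgn passed under all 12, Dcn and Prelp under 9, Fmod and Ogn under 8, Lum under 1, and Omd and Aspn under none, and the values of Aspn alone lie on both sides of 0.

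The TIC sample with the highest value was not the same for all members. TIC replicate 3 was highest for Bgn, Dcn and Fmod, TIC replicate 2 for Lum, Prelp and Ogn, and TIC replicate 1 for Aspn and Omd. TIC replicate 1 was the lowest of the 3 for Dcn, Lum and Prelp. The spread between replicates was smallest for Bgn, with a coefficient of variation of 13.8% in non-CD24+CD90+ tumor cells and 13.3% in TICs.

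In the genome the members lie in clusters. Dcn and Lum are neighbors on chromosome 10, with 47.0 kb and no gene of the annotation between them. Aspn, Omd and Ogn follow each other on chromosome 13 with gaps of 14.9 and 15.2 kb, and Prelp and Fmod lie 115.8 kb apart on chromosome 1. Within each of these clusters 1 member passed the threshold on chromosome 10 (Dcn), 1 of 3 on chromosome 13 (Ogn), and both on chromosome 1. The chromosome 13 genes lie inside the span of Cenpp, a centromere protein gene on the opposite strand. Its exons share 7 bases with those of Aspn, and it had 0 to 53 counts a sample. Prelp exons overlap an antisense gene, Gm15851, by 350 bases, and that gene was at 0 counts in all 6 samples. Whether counting used the strand is not given in the sources used here.

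The sequences around the transcription start are shown for the members that passed the threshold and had an entry in the RefSeq promoter table (GRCm38.p6). Omd is added, as it shares a stretch with its neighbor Ogn. Entries matched 6 of the 8 members, all except Dcn and Lum. Each line runs 5′ to 3′ on the strand of the gene from 150 bases before the start site to 20 bases after it. Capitals mark GC boxes (GGGCGG or its complement CCGCCC) in Bgn, and in Fmod, Omd and Ogn the runs of 11 bases that Ogn shares with each of the other two.
Bgn chrX:73483451-73483620, plus strand: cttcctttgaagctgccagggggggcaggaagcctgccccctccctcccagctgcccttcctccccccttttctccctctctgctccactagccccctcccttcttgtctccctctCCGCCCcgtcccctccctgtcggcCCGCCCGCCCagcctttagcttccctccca
Fmod chr1:134037104-134037273, plus strand: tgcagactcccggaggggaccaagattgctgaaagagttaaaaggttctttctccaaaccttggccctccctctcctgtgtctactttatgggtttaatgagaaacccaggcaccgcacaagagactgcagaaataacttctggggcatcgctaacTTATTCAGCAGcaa
Prelp chr1:133921382-133921551, minus strand: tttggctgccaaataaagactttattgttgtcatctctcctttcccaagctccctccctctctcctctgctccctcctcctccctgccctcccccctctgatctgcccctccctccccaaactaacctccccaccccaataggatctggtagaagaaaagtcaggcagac
Omd chr13:49582312-49582481, plus strand: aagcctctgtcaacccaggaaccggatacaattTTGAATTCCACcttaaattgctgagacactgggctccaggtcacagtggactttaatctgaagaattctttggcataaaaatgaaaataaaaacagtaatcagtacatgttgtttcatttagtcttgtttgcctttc
Ogn chr13:49607865-49608034, plus strand: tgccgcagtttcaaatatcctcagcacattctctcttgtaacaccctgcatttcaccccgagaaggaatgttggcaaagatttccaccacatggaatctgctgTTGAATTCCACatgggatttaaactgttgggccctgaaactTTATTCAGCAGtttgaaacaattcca

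The most abundant member had the most GC-rich of these stretches. Bgn held 68.2% G and C, against 54.7% in Prelp, 48.2% in Fmod, 42.9% in Ogn, 37.6% in Omd and 34.1% in Aspn, where the median of all promoters of the table over the same 170 bases was 54.1%. Motifs were searched on both strands in the full window of 300 bases. The GC box GGGCGG was found in Bgn alone, with 3 matches that begin at -34, -10 and -6, the latter pair overlapping, and it is present in 35.6% of all 32817 promoters. The TATA box TATAAA was found in Aspn and Ogn only, more than 150 bases before the start, and in 13.6% of all promoters. Neither CAGGTG, the E-box type bound by ZEB and SNAI factors (20.2% of all promoters), nor the AP-1 site TGANTCA (7.81%) was found in any of the 6 windows. The general E-box CANNTG, of which CAGGTG is a special case, was found in all but Omd and in 72.3% of all promoters. The run TTATTCAGCAG of Fmod and Ogn occurs in 4 promoters (0.0122% of all), and TTGAATTCCAC of Omd and Ogn in 3 (0.00914%), the members included. Each was picked as the longest run that a pair of stretches shares, so its rarity follows from that choice and was not tested. The longest run of any pair, 12 bases in Bgn and Prelp, and an 11-base run of Fmod and Prelp hold C and T alone. Those are not in capitals. These matches describe the letters only, and binding was not measured.

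Relative abundance within the family was compared after dividing by the length of all exons of a gene, since a longer transcript yields more reads. On this scale, CPM per kilobase, the order in non-CD24+CD90+ tumor cells was Bgn (144.8 ± 19.96), Dcn (88.6 ± 9.23), Ogn (21.3 ± 7.76), Lum (10.7 ± 5.76), Omd (8.09 ± 5.59), Prelp (6.87 ± 3.01), Aspn (6.596 ± 5.62) and Fmod (1.68 ± 0.65; SD, n = 3). In this group the steps from Bgn to Dcn and from Dcn to Ogn were free of overlap between samples, and the members from Ogn down each overlapped the next. In TICs the order was Bgn (393 ± 52.4), Dcn (247 ± 110.2), Ogn (62.3 ± 19.9), Lum (28.6 ± 13.9), Prelp (27.3 ± 9.12), Omd (19.1 ± 4.22), Fmod (12.4 ± 4.84) and Aspn (7.51 ± 1.82; SD, n = 3). Here Dcn and Ogn, and Ogn and Lum, were free of overlap. On this scale the ranges of Bgn and Dcn overlapped across TIC samples, although Bgn was the higher of the pair in each of the 3. By the longest transcript the TIC ranges did not overlap, with Bgn at 762 to 984 and Dcn at 156 to 423 CPM per kilobase.

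Ranked among 12141 tested genes with a known length, Bgn moved from place 370 in non-CD24+CD90+ tumor cells to 141 in TICs, and Dcn from 618 to 204. Fmod moved from place 9423 to 3675, and Aspn only from 5505 to 5235. Bgn and Dcn therefore were among the more abundant transcripts of both groups, while Fmod was a scarce one in the non-CD24+CD90+ group. For Bgn the length matters most, as its exons together measure 6099 bases and its longest transcript 2666, and with the latter its place in TICs was 73.

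As a share of the family total per kilobase, the groups overlapped for 7 of the 8 members. Bgn made up 52.6%, 45.7% and 51.7% in the non-CD24+CD90+ samples and 60.9%, 41.7% and 47.2% in the TIC samples, means of 50.02 ± 3.79% and 49.9 ± 9.86% (SD, n = 3; exact permutation p = 1). Dcn made up 33.3%, 32.2% and 26.8% against 18.4%, 34.7% and 37.2% (exact permutation p = 1, n = 3). TIC replicate 1 had the highest Bgn share and the lowest Dcn share of all samples. Bgn and Dcn together held 76.5% to 85.9% of the family in every sample on this scale. The level of the shares depends on the length used. By counts as deposited the mean share of Bgn was 57.0% in non-CD24+CD90+ tumor cells and 56.9% in TICs, and that of Dcn 33.5% and 32.9%. Shares by the longest transcript are not given here. On that scale Bgn was at 331 CPM per kilobase in non-CD24+CD90+ tumor cells and 899 in TICs, and Dcn at 110.2 and 308.

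Only the share of Fmod was free of overlap between the groups. It was 0.773%, 0.656% and 0.329% in the non-CD24+CD90+ samples and 1.53%, 1.12% and 1.97% in the TIC samples, a difference of 0.95 percentage points (exact permutation p = 0.1, two-sided, n = 3). That is the smallest p that 3 samples against 3 allow, and adjusted over the 8 shares compared by the method of Benjamini and Hochberg it was 0.8. The share of Aspn was 2.38 ± 2.17% against 0.978 ± 0.377%, with overlap (SD, n = 3; exact permutation p = 0.4). The shares of Lum, Prelp, Omd and Ogn also overlapped, with exact permutation p from 0.3 to 1 (n = 3).

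**Figure D3:**
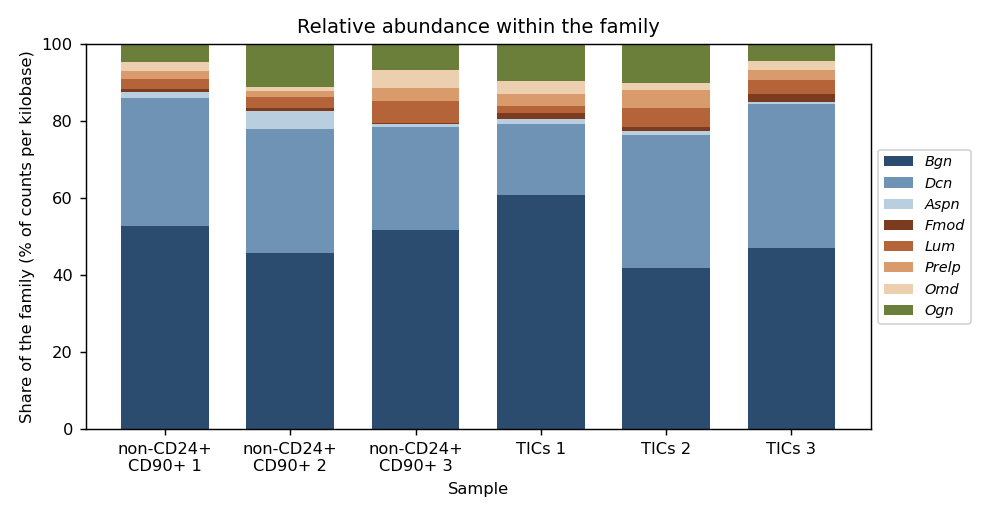
Share of each member in the summed counts per kilobase of the family, in percent, for the 3 non-CD24+CD90+ samples and the 3 TIC samples. The lowest blocks of each bar, Bgn and Dcn, hold 76.5% to 85.9% of every bar, and TIC replicate 1 has the tallest Bgn block, at 60.9%.

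The ratio of biglycan to decorin, the class I pair that carries chondroitin or dermatan sulfate, did not separate the groups. Per kilobase of all exons, the scale used here, it was 1.58, 1.42 and 1.93 in the non-CD24+CD90+ samples and 3.31, 1.20 and 1.27 in the TIC samples. By the longest transcript it was 2.91, 2.60 and 3.55 against 6.09, 2.21 and 2.33, with the same log2 difference between the groups. Most of the spread came from TIC replicate 1, whose ratio was above all others, while the other two TIC samples were below all others. The mean log2 ratio differed by 0.07 (0.70 ± 0.23 against 0.78 ± 0.82, SD, n = 3; exact permutation p = 1).

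SLRPs act on collagen fibrils, so the family was also set against Col1a1, the gene of the main chain of collagen I, by counts in the same sample. This ratio does not depend on depth or normalization. For every 100 counts of Col1a1 the 8 members together had 96.2, 102.1 and 89.2 counts in the non-CD24+CD90+ samples and 98.5, 87.1 and 88.2 counts in the TIC samples. The groups overlapped, at 95.8 ± 6.43 and 91.3 ± 6.27 (SD, n = 3). Fmod was the only member without overlap on this scale, at 0.350 ± 0.145 counts per 100 Col1a1 counts in non-CD24+CD90+ tumor cells and 0.865 ± 0.223 in TICs (SD, n = 3).

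The result of this comparison depended on the denominator. Set against Col1a2, the other chain of collagen I, the family had 237, 209 and 255 counts per 100 in the non-CD24+CD90+ samples and 148, 142 and 193 in TICs, lower in all 3 TIC samples, a log2 difference of -0.55. Against Col3a1 the log2 difference was -0.20, and against the summed counts of a list of fibroblast markers it was 0.44, both with overlap. These other denominators were added after the data had been seen.

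**Figure D4:**
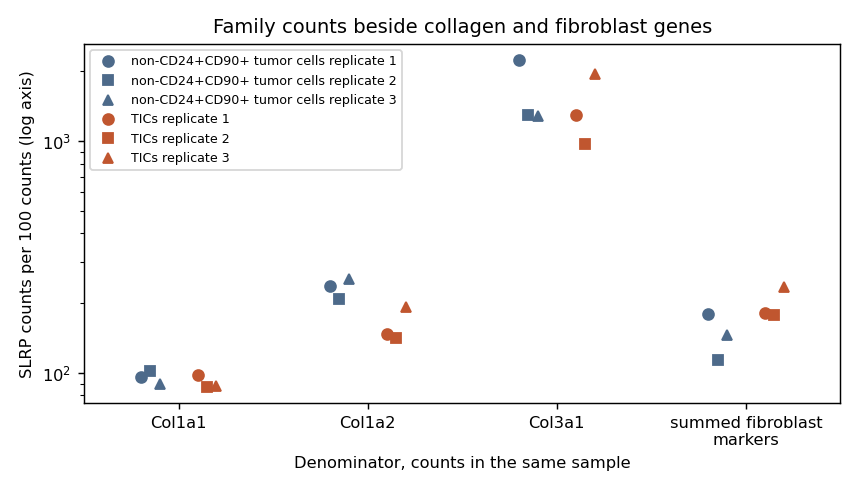
Counts of the 8 SLRP members together per 100 counts of Col1a1, Col1a2, Col3a1 or the summed fibroblast markers in the same sample, on a log axis, with 1 point per sample. Against Col1a1 the 6 samples lie between 87.1 and 102.1, and against Col1a2 all TIC samples lie below all non-CD24+CD90+ samples.

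Other genes of the SLRP family were scarce. Of 9, 6 were abundant enough for testing, none passed the threshold with edgeR, and all 6 had a log2 fold change above 0, with a median of 2.02. Podocan (Podn) came nearest, at 17.7, 9.30 and 6.29 CPM in the non-CD24+CD90+ group and 36.9, 60.5 and 40.8 CPM in TICs, without overlap (log2 fold change 2.05 ± 0.64 (SE), adjusted p = 0.122 by edgeR). It was the only one of them with an unadjusted p below 0.05, and DESeq2 called it while the quasi-likelihood test did not. Epiphycan (Epyc), chondroadherin (Chad), tsukushi (Tsku), podocan-like 1 (Podnl1) and Ecm2 overlapped between the groups, with log2 fold changes of 0.52 to 3.17. Keratocan (Kera) had counts in TIC replicate 2 only (51) and nyctalopin (Nyx) in non-CD24+CD90+ replicate 1 only (7), and opticin (Optc) was at 0 in all samples.

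The collagens that SLRPs bind rose with them. Of 12 collagen genes 10 were called higher in TICs, beside 1.36% of all genes tested, and none was called lower. The median log2 fold change of the 12 was 1.39, and 8 were called both without TIC replicate 3 and with the quasi-likelihood test. Col1a1 rose from 1622 ± 223 to 4718 ± 981 CPM (log2 fold change 1.54 ± 0.28 (SE), adjusted p = 0.000122 by edgeR) and Col1a2 from 662 ± 34.1 to 2666 ± 241 CPM (2.01 ± 0.26, adjusted p = 2.37e-09; SD, n = 3). Col14a1, a fibril-associated collagen whose product binds decorin, rose by 2.06 ± 0.34 (SE) on the log2 scale and Col5a2 by 2.05 ± 0.34 (adjusted p = 1.40e-05 and 1.64e-05 by edgeR). The 2 that did not pass, named after their values were seen, were Col2a1 at -1.01 ± 0.87 and Col11a1 at 0.48 ± 0.36 (SE).

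Genes for the sugar chains were counted beside the 1.55% of all genes called in either direction, and lists this short are expected to hold few calls at that share. Of 22 genes for chondroitin and dermatan sulfate synthesis 20 were tested and none was called in either direction, with 13 above and 7 below 0 and a median log2 fold change of 0.40. The TIC samples were above all non-CD24+CD90+ samples for 4 of the 20, beside 7.69% of all genes tested. The TIC samples were below them for 2 of the 20, a direction for which the share of all genes is not given here. By the mean over all 6 samples the most abundant were Chsy1, a chondroitin synthase, with -0.55 ± 0.42, and B3gat3, which adds the last sugar of the linker to the core protein, with -1.18 ± 0.38 (SE; adjusted p = 0.953 and 0.139 by edgeR). B3gat3 was below all non-CD24+CD90+ samples in all TIC samples, at 57.0, 52.2 and 33.9 CPM against 98.9, 137 and 88.0 CPM. Of 7 genes for keratan sulfate synthesis 4 were tested and none was called, with a median of 0.22. The most abundant of these, B4galt1, was at -0.47 ± 0.27 and Chst2, a sulfotransferase, at 0.97 ± 0.45 (SE). At an unadjusted p below 0.05 there were 3 genes of the chondroitin and dermatan sulfate list and 1 of the keratan sulfate list. The share of all genes at that unadjusted level is not given here, so these counts are a description. Neither the quasi-likelihood test nor DESeq2 called any gene of these lists.

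Proteases that cut SLRPs or trim their precursors were tested for 8 of 10 genes. Of these 8, 4 were called higher in TICs, beside 1.36% of all genes tested, and the median log2 fold change of the 8 was 1.26. Mmp14, a membrane-bound collagenase, rose from 1099 ± 25.4 to 2606 ± 701 CPM (SD, n = 3; log2 fold change 1.25 ± 0.29 (SE), adjusted p = 0.00642 by edgeR). The aggrecanase Adamts5 rose by 1.38 ± 0.34 (SE) on the log2 scale, Mmp2, a gelatinase that cleaves decorin, by 1.33 ± 0.36, and the collagenase Mmp13 by 2.85 ± 0.79 (adjusted p = 0.0133, 0.0407 and 0.0766 by edgeR). Without TIC replicate 3 only Mmp14 and Mmp2 of this list passed. Adamts4, second after Mmp14 by the mean over all 6 samples, was at 1.28 ± 0.43 (SE) with overlap between the groups.

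Of 19 genes for receptors and growth factors that bind SLRPs, 17 were tested, with 8 above and 9 below 0 and a median log2 fold change of -0.01, equal to that of all genes tested to this precision. Lrp1, an endocytic receptor for decorin, was the only one called, beside 1.36% of all genes tested called higher. It rose from 197 ± 59.5 to 459 ± 86.2 CPM (SD, n = 3; log2 fold change 1.22 ± 0.31 (SE), adjusted p = 0.0210 by edgeR). Cd44 was at 353 ± 19.2 CPM in the non-CD24+CD90+ group and 234 ± 35.4 CPM in TICs, below in all 3 TIC samples (-0.59 ± 0.28, adjusted p = 0.564). Proteoglycans outside the SLRP family were not called for any of 9 genes tested of 14. The basement membrane proteoglycans perlecan (Hspg2) and agrin (Agrn), the most abundant of them by the mean over all 6 samples, were at 0.72 ± 0.36 and 0.17 ± 0.30 (SE), both with overlap, and the median of the list was 1.14. At an unadjusted p below 0.05 there were 4 genes of this list, without a share of all genes to set beside them, and the other tests called none.

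**Figure D5:**
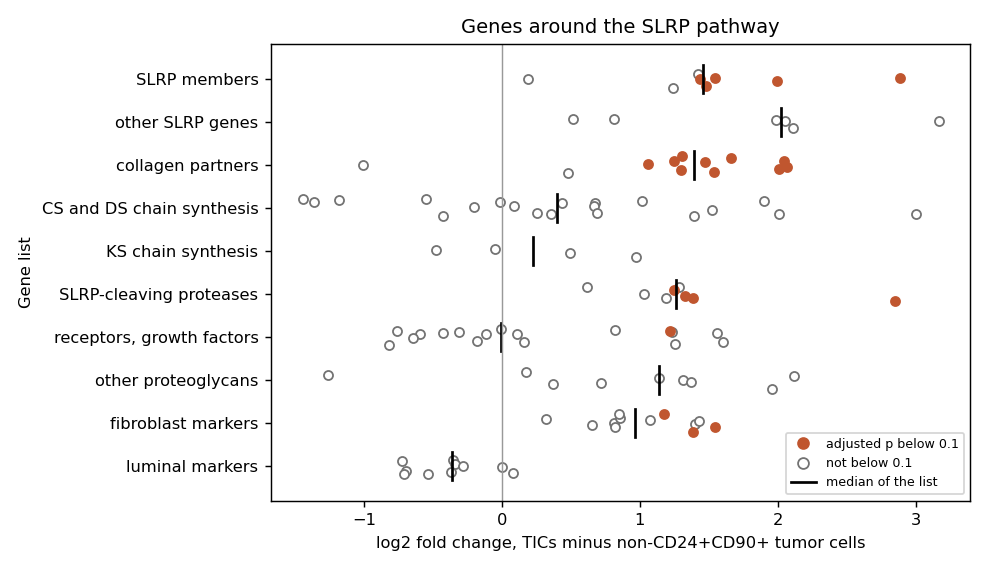
Log2 fold change, TICs minus non-CD24+CD90+ tumor cells, of every tested gene of 10 lists, with filled points where the adjusted p was below 0.1 and a black line at the median of each list. The SLRP, collagen, protease, receptor and fibroblast marker lists hold filled points, all at positive values. The other SLRP genes, the 2 lists of sugar chain synthesis, the other proteoglycans and the luminal markers hold none. Of the luminal markers, 9 of 10 lie below 0.

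Markers of other cell types were summed in the same samples, and their part in the SLRP differences was not tested. CD90, which the TIC gate required, is also a surface marker of fibroblasts and other mesenchymal cells. The summed level of 14 fibroblast markers was 912 to 1223 CPM in the non-CD24+CD90+ samples and 2019 to 2349 CPM in TICs, without overlap. Of the 12 tested, all were above 0, and Cd34, Dpt (dermatopontin, itself a decorin-binding protein) and Pi16 passed, with log2 fold changes of 1.39 ± 0.30, 1.54 ± 0.36 and 1.18 ± 0.34 (SE; adjusted p = 0.00165, 0.00765 and 0.0692 by edgeR). Over all genes tested 1.36% were called higher. The most abundant marker, Fbln2, was at 0.85 ± 0.30 (SE) and did not pass, and Tcf21 was at 0 in every sample. Pericyte and smooth muscle markers summed to 499 to 709 CPM against 874 to 1419 CPM, with 1 of 11 called (Rgs5, 1.45 ± 0.28 (SE), adjusted p = 0.000466 by edgeR), while Acta2 was at -0.01 ± 0.35. Rgs5 made up much of these sums, at 243 CPM in each non-CD24+CD90+ sample and at 528, 667 and 800 CPM in TICs.

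Among adipocyte markers Fabp4 alone could be tested and was called, at 137, 91.3 and 56.5 CPM against 192, 494 and 1225 CPM. Adipoq, Plin1 and Lep were at 0 in all samples, and Cidec, Pparg and Car3 had too few counts for testing. The list thus rests on Fabp4 alone, and which cells its RNA came from was not tested. Endothelial markers summed to 173 to 227 CPM against 224 to 903 CPM, highest in TIC replicate 3. None of 9 was called, with 6 at an unadjusted p below 0.05. For such unadjusted counts, here and for the luminal markers, the share of all genes is not given. Luminal epithelial markers summed to 5949 to 6312 CPM in the non-CD24+CD90+ samples and to 3926 to 4651 CPM in TICs, with 9 of 10 below 0 and none called by edgeR, while 2 had an unadjusted p below 0.05 and DESeq2 called the same number. Both groups thus held high levels of Krt18 (2657 ± 161 and 1645 ± 153 CPM) and Epcam (1494 ± 84.3 and 1181 ± 69.6 CPM; SD, n = 3). Basal markers overlapped, at 450.4 to 1001 CPM against 365 to 593 CPM, and leukocyte markers were near 0 in both groups, at 12.4 to 23.8 CPM against 4.09 to 28.1 CPM, with Adgre1 and Cd3e at 0.

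The genes most like the family over the 6 samples were sought among 8754 genes with a mean of at least 10 CPM, by Pearson's r with the mean log2 CPM of the 8 members. As this mean is higher in TICs, any gene that differs between the groups in the same way scores high, and r is given as a description. The 5 leading genes were Sept4 (0.995), Caskin2 (0.995), Islr (0.992), Col1a2 (0.992) and Mfap2 (0.990). Islr encodes a secreted protein with leucine-rich repeats of its own, and Mfap2 a component of elastic microfibrils. Mfap2 was at 0.146, 0.794 and 1.43 CPM in the non-CD24+CD90+ samples and 13.4, 26.5 and 26.8 CPM in the TIC samples, and Islr at 1.46, 1.82 and 3.004 CPM against 19.6, 26.8 and 21.9 CPM. Of these 5, Sept4, Col1a2 and Mfap2 passed the threshold (adjusted p = 0.00171, 2.37e-09 and 0.0397 by edgeR), and Caskin2 and Islr did not (0.640 and 0.115). Because the 5 were picked for likeness to a profile higher in TICs, these p-values are no separate support. All but Col1a2 were below 10 CPM in each non-CD24+CD90+ sample and met the minimum through the TIC samples.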

How the data were processed

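RNA-seq was analysed for TICs (n = 3) and for non-CD24+CD90+ tumor cells (n = 3), each sample a pool of 4 cell sorts. Per the labels and the methods of the study, the authors trimmed reads with Trimmomatic version 0.32, aligned them to GRCm38 with STAR version 2.4.0, removed reads that were not uniquely mapped with SAMtools version 1.1 and counted the rest per gene with HTSeq. Its version, its strand setting and the annotation release are not given in the sources used here. The deposited values are raw counts for 41388 Ensembl genes, with no rows for unassigned reads. Removing reads that map more than once can undercount genes with near-identical copies.

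Gene symbols, positions and exon lengths came from GENCODE M21 on GRCm38, which named 40254 of the genes. The 12192 genes that exceeded 1 CPM in 3 or more samples entered the fit. Factors were computed by TMM, with common and tagwise dispersions, and groups were compared with exactTest in edgeR (version 4.0.16, run in R, version 4.3.3), with Benjamini-Hochberg adjustment and a threshold of 0.1. The common dispersion was 0.678. The study states a CPM filter but not its value. Standard errors came from the negative binomial fit, and 95% intervals from a normal approximation. With 3 samples against 3, a permutation test of a single value cannot go below p = 0.1. Total counts of 6781239 to 9100552 per sample make 3 counts equal to 0.33 to 0.442 CPM, a floor that covers counting error only. The groups are labelled as separate samples and were fitted as independent. The p-values measure the spread between these pools, with no allowance for mice that the groups may share.

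Shares within the family used counts divided by the length of the union of exons. Promoter sequences came from RefSeq (GRCm38.p6). The members and the lists of related genes and markers were chosen with earlier results of these data known. Named outside the family were all listed relatives of the SLRPs, in each other list up to 4 called genes with the smallest p and the 2 most abundant, and the 5 genes most like the family in level. The alternatives were edgeR's quasi-likelihood test, DESeq2 version 1.42.0 without independent filtering, RLE size factors, library size alone, no filter, a filter of 10 counts in 3 samples, an adjusted p below 0.05, other lengths, and each sample left out in turn. Other denominators for the ratio to Col1a1 were chosen after seeing the data. The scripts were tested on simulated data. One of the marker lists is not reported here.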

Additional observations from a re-analysis of the deposited data

How the results depend on the processing

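No paired analysis was possible because the replicate numbers only follow the order of the samples, and the labels do not say which samples of the 2 groups, if any, share mice. The number of genes called, 189, was 116 at an adjusted p below 0.05, 50 with the quasi-likelihood test, 305 with DESeq2 and 112 without a filter on low counts, and it ranged from 68 to 314 when a sample was left out. The number of SLRP members called, 5, was 1 with the quasi-likelihood test, and it ranged from 2 to 6 when a sample was left out. The fewest, 2, were called without non-CD24+CD90+ replicate 2 or 3, there were 3 without TIC replicate 2, and the most, 6, without TIC replicate 1. The difference in the share of Fmod, 0.95 percentage points, was 0.586 points both for counts as deposited and for the length of the longest transcript, and 0.74 to 1.16 when a sample was left out. The log2 difference of the family against Col1a1, -0.07, was -0.55 against Col1a2, -0.20 against Col3a1 and 0.44 against fibroblast markers, and these denominators were chosen after seeing the data. Among the 96 other values of the single members, 80 kept their direction and their side of the threshold. A further 14 no longer passed it, 1 newly passed it (Lum without TIC replicate 1), and 1 turned in sign. The last was Aspn, at -0.25 without non-CD24+CD90+ replicate 3, while without replicate 2 of that group Aspn was at 1.11. The causes of these changes were not tested. The lowest counts of Fmod, Omd and Aspn were 23, 66 and 31, and the part of depth in their spread was not tested.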
